A study of Homo sapiens with 34 samples.

Results

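STC2, SZRD1 and TMEM263 were the 3 genes that m6Am-seq in HEK293T cells listed in both stress comparisons with ratios on opposite sides of 1. This count sets aside 2 genes, MFSD11 and TMEM107, that were listed in both directions within 1 list. The 3 genes were picked by name from the 3 deposited m6Am peak lists, in which each gene had 1 line per list, so that 9 of the 2116 listed lines and 3 of the 1807 distinct gene names are described here. STC2 and TMEM263 stood below 1 in the heat shock list and above 1 in the hypoxia list, while SZRD1 stood above 1 after heat shock and below 1 in hypoxia. Because these ratios chose the genes, their opposite directions are a description and were not tested.

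HEK293T is a transformed human embryonic kidney line. Heat shock was 2 h at 43 °C with 6 h of recovery, hypoxia was 24 h at 1% oxygen, and untreated cells of the same line served as the control of both stresses. Each of these 3 conditions had 7 libraries: 2 of m6A immunoprecipitation without the demethylase FTO, 2 with FTO, 2 of m7G-cap immunoprecipitation and 1 input. The baseline list is named for HEK293T cells, of which the series holds 8 further wild-type libraries, with 2 of each kind. The list names no library, so whether the untreated control also went into it cannot be told. Every list gives 1 outer span per peak, introns included, and the stress lists add 1 value per line, the stressed-to-untreated ratio that the authors deposited. The lists hold no reads, depth or replicate values, so no error or interval can be attached to any ratio or position below.

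N6,2′-O-dimethyladenosine (m6Am) forms when the first transcribed nucleotide after the m7G cap is an adenosine, which is methylated on its base by the cap-specific methyltransferase PCIF1. FTO removes the base methyl group from m6Am, and the assay used that sensitivity to tell m6Am from m6A in the 5′-UTR. Where a gene can start transcription from several positions, only starts at an adenosine can carry the mark, and adenosine starts are often found in a BCA context (C, G or T, then C, then the first adenosine).

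STC2 encodes stanniocalcin-2, a secreted glycoprotein hormone that inhibits the protease PAPP-A and is known to be induced by hypoxia and by stress of the endoplasmic reticulum. SZRD1 encodes a small and little-studied protein with a SUZ domain, a motif of RNA-binding proteins. TMEM263 encodes a small transmembrane protein that has been linked to growth of the skeleton. In the Gencode release 44 annotation on GRCh37, the genome version that the lists call hg19, STC2 (ENSG00000113739.11_10) lies on the minus strand of chromosome 5 from 172741726 to 172755450. SZRD1 (ENSG00000055070.17_11) lies on the plus strand of chromosome 1 from 16679070 to 16724640, and TMEM263 (ENSG00000151135.10_8) on the plus strand of chromosome 12 from 107349497 to 107372556. The main transcript of each gene, the one marked MANE Select, has 4 exons and codes for 302, 152 and 116 amino acids in STC2, SZRD1 and TMEM263, respectively.

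The sequences at the annotated start sites show which starts could carry m6Am. Those below are every adenosine start at or within 50 bases of a main start that lay inside both stress spans of its gene, together with the guanosine main start of SZRD1 and the only BCA start of SZRD1. Each runs 5′ to 3′ on the transcribed strand over 30 bases of GRCh37, and the capitals mark the first transcribed base, which is the last capital, and the 2 bases before it.
STC2 main start, chr5:172755403-172755432, minus strand: ctgccattgccggGCActcgcggcgctgct
STC2 start 33 bases upstream, chr5:172755436-172755465, minus strand: ccagagcttccagGGAtatttgaggcacca
SZRD1 main start, chr1:16693722-16693751, plus strand: gggtgggggaggaGGGaaagcggcgagtaa
SZRD1 start 1 base downstream, chr1:16693723-16693752, plus strand: ggtgggggaggagGGAaagcggcgagtaag
SZRD1 start 23 bases downstream, chr1:16693745-16693774, plus strand: cgagtaagatggaAGAtgaggaggtcgctg
SZRD1 start 154 bases upstream, chr1:16693568-16693597, plus strand: tctctgcccccttCCAagatggctgcccta
TMEM263 main start, chr12:107349670-107349699, plus strand: tccaccaccgccgCCAcagtcttccagctc
TMEM263 start 40 bases upstream, chr12:107349630-107349659, plus strand: gtcgcgtcgggcgCCAcgtccgcagccaga

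The main starts of STC2, at 172755417 in a GCA context, and of TMEM263, at 107349685 in a CCA context, were adenosines. SZRD1 differed, as its main start at 16693737 was a guanosine and the next base, 16693738, was an adenosine start, in a GGA context, of 2 transcript models not classed as protein-coding. The only BCA start of SZRD1, at 16693583, lay 2 bases outside its heat shock and baseline spans and 31 bases outside its hypoxia span. Among the annotated starts inside both stress spans, 2 of 2 were adenosines in STC2, 2 of 7 in SZRD1 and 3 of 5 in TMEM263. The corresponding counts in a BCA context were 1, 0 and 2. For reference, 32.5% of the 146306 annotated starts of protein-coding genes were adenosines and 14.7% were BCA, and inside the listed spans these shares were 34.1% and 15.8% for heat shock and 34.9% and 16.9% for hypoxia. With 2 to 7 starts per gene, nothing particular to the 3 genes can be read from these shares, and the lists do not say which start was methylated. The paper separately called m6Am sites at single-base resolution and mapped start sites by CAGE. Neither was used here.

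The ratios were compared first. In the heat shock list, 39 of 74 lines were above 1 (52.7%) and 35 were below 1 (47.3%), whereas in the hypoxia list 359 of 390 were above 1 (92.1%) and 31 were below 1 (7.95%). These percentages describe the lists from which the genes were chosen, and nothing about the genes is read from them. STC2 had a ratio of 0.458 after heat shock, which is 2.19-fold below the untreated cells or −1.13 on the log2 scale. Its hypoxia ratio was 2.66, or 1.41 on the log2 scale. TMEM263 had a ratio of 0.413 after heat shock, 2.42-fold below the untreated cells, and of 2.04 in hypoxia. On the log2 scale these values were −1.27 and 1.03. For SZRD1 the order was the other way round, with a ratio of 2.13 after heat shock (log2 ratio 1.09) and of 0.448 in hypoxia, which is 2.23-fold below the untreated cells (log2 ratio −1.16).

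**Figure D1:**
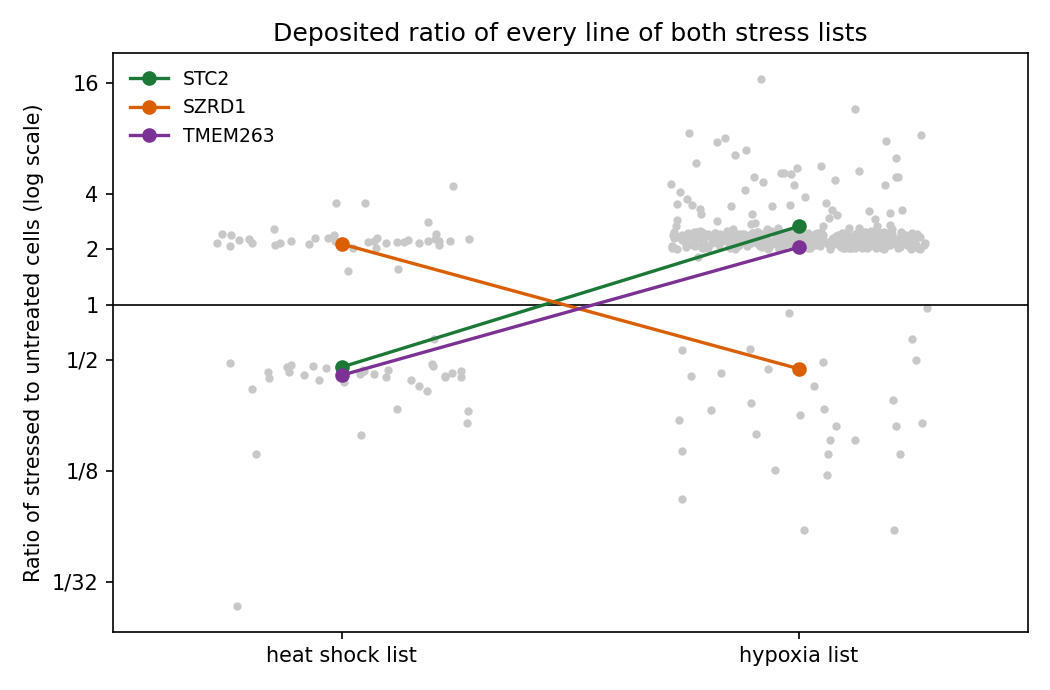
Deposited ratio of stressed to untreated cells on a log axis for every line of the heat shock list (left, 74 lines) and of the hypoxia list (right, 390 lines), with grey points for the other lines, spread sideways only so that they can be seen. The lines join the ratios of one gene: STC2 goes from 0.458 to 2.66, TMEM263 from 0.413 to 2.04 and SZRD1 from 2.13 to 0.448.

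The ratios of the 3 genes were moderate for these lists. STC2 ranked 29 of 35 by fold among the heat shock lines below 1, and 6 lines of that direction were closer to 1. TMEM263 ranked 18 of those 35 and was itself the median line, at 0.413. SZRD1 ranked 32 of 39 among the heat shock lines above 1, whose median was 2.21. In hypoxia, STC2 ranked 53 of 359 lines above 1, so that 306 lines (85.2%) were closer to 1, while TMEM263 ranked 328 and only 31 lines (8.64%) were closer. SZRD1 ranked 24 of the 31 hypoxia lines below 1, whose median was lower, at 0.250. STC2 in hypoxia was thus the one of the 6 ratios with a fold above its list's median for that direction. None of the 6 ratios was the one nearest to 1 in its list. However, the paper's methods called a peak stress-induced at a difference above 2, and several of the 6 lay just past that limit. They include TMEM263 in hypoxia (2.04), and SZRD1 (2.13) and STC2 (2.19-fold below the untreated cells) after heat shock. The listed ratios nearest to 1, all short of that limit, were 1.53 (KHSRP) and 0.649 (TMEM107) after heat shock and 1.80 (MFSD11) and 0.955 (CNFN) in hypoxia. Both stress ratios of a gene were set against the same untreated libraries and are therefore not independent of each other. Without the RNA-seq level of each gene beside it, more methylation per transcript and more transcript cannot be told apart in a ratio. The paper did compare expression, and reports little change in mRNA for most genes whose modification responded to stress. Levels of these 3 genes were not examined here.

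The outer spans behind these ratios, introns included, differed between heat shock and hypoxia in each of the 3 genes. The spans of a gene overlapped between heat shock and hypoxia in 3 of 3 genes, but only in SZRD1 did the overlap reach 50% of both spans. Of the 16 other genes named in both lists, 15 had spans that shared a base and 14 reached 50% of both. On exonic bases alone, counted over all annotated transcripts, the 3 genes all reached 50%, and the shared part was 88.4% of the heat shock and 100% of the hypoxia bases in STC2, 97.2% and 93.5% in SZRD1, and 100% and 95.1% in TMEM263. In STC2 this measure counts only 228 bases of the 1284 bp hypoxia span. It leaves out the 955 upstream bases in which the spans differ, because no annotated exon lies there. None of the 3 had the same start and end in both stresses, and 10 of the 16 other genes did.

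In STC2, the heat shock span ran from 172755193 to 172755551 on chromosome 5 (359 bp), and the hypoxia span from 172755223 to 172756506 (1284 bp). The baseline span had exactly the hypoxia coordinates. Heat shock and hypoxia shared 329 bp, which was 91.6% of the heat shock span and 25.6% of the hypoxia span. On the minus strand the lower coordinate is the 3′ end, so the spans differed by 30 bases at the 3′ end and by 955 bases at the 5′ end. The heat shock span began 134 bases upstream of the main start and 101 bases upstream of the nearest annotated start. It covered the whole 5′-UTR of 221 bases and the first 4 bases of coding sequence. The hypoxia and baseline spans began 1089 bases upstream of the main start, covered 195 bases of the 5′-UTR and stopped 27 bases before the first coding base. No exon of STC2 in the annotation used here holds the 5′ end of any of the 3 spans. A 5′ end more than 1000 bases upstream of the nearest annotated start was uncommon in the hypoxia list, with 13 of 371 spans whose gene was found in the annotation (3.50%). Both annotated starts inside the heat shock span, at 172755417 and 172755450, also lay inside the hypoxia span. The stretch of 955 bases that was listed in hypoxia and at baseline but not after heat shock held no annotated start of STC2.

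**Figure D2:**
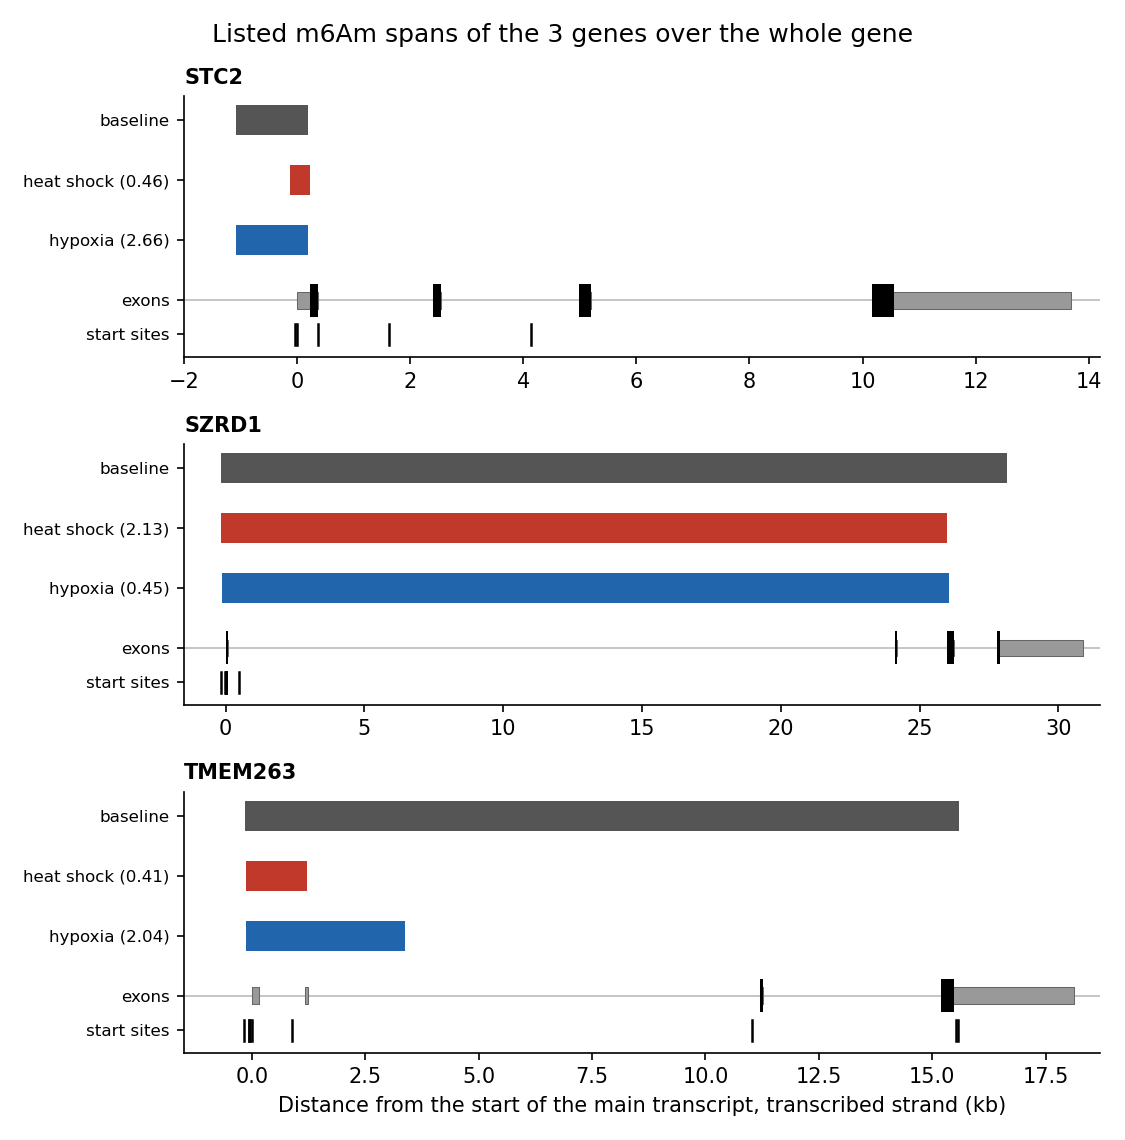
Outer spans of STC2, SZRD1 and TMEM263 in the baseline, heat shock and hypoxia lists, with the deposited ratio in brackets, against the distance from the start of the main transcript in kb along the transcribed strand. Black blocks are coding and grey blocks untranslated parts of main exons, and ticks are annotated start sites; the spans of SZRD1 cover most of the gene, whereas those of STC2 stay around and upstream of the first exon.

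SZRD1 had the spans most alike of the 3 genes. After heat shock the span ran from 16693585 to 16719741 on chromosome 1 (26157 bp), and in hypoxia from 16693614 to 16719811 (26198 bp). They shared 26128 bp, 99.9% of the first and 99.7% of the second, and differed by 29 bases at the 5′ end and 70 bases at the 3′ end. The baseline span had the 5′ end of the heat shock span and ran on to 16721884, for 28300 bp. Nearly all of this length was intron of the main transcript, 98.9% after heat shock and 98.7% in hypoxia, so the part of the spans in main exons was short. It was 136 bases after heat shock and 206 in hypoxia, against 724 at baseline. Both stress spans ended in exon 3, of which they held 19 and 89 of 255 bases, respectively. Accordingly, the heat shock span touched 40 codons (26.3% of the coding sequence) and the hypoxia span 64 codons (41.7%), while the baseline span held all 456 coding bases and 252 bases of the 3′-UTR. All 7 annotated starts inside the heat shock span were also inside the hypoxia span. A pair of genes on the opposite strand overlapped these spans: SPATA21 in part, with 6130 bp after heat shock and 6200 bp in hypoxia, of which 185 were exonic in either case, and the whole of the pseudogene RPL22P3, with 381 bp.

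TMEM263 began at the same base in both stresses. The heat shock span ran from 107349560 to 107350903 on chromosome 12 (1344 bp) and the hypoxia span from 107349560 to 107353055 (3496 bp). All of the heat shock span was thus within the hypoxia span, of which it made up 38.4%, and the 3′ ends differed by 2152 bases. This shared 5′ end lay 46 bases upstream of the nearest annotated start, 107349606, and 125 bases upstream of the main start. The baseline span began 30 bases further upstream and reached 107365285, for 15756 bp. The heat shock span ended in exon 2 of the main transcript, after 44 of its 68 bases. In hypoxia the span held the whole of exon 2 and ended 8 bases into an exon from 107353048 to 107353163 that belongs to 1 other protein-coding transcript. Neither stress span reached coding sequence of the main transcript, and they held 203 and 227 of the 233 bases of its 5′-UTR. Coding sequence of the other transcripts was not counted. By contrast, the baseline span covered all 348 coding bases and 119 bases of the 3′-UTR. Counted over exons of all annotated transcripts, the stress spans were more alike than their lengths, as 625 exonic bases were shared, all of those in the heat shock span and 95.1% of the 657 in the hypoxia span.

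**Figure D3:**
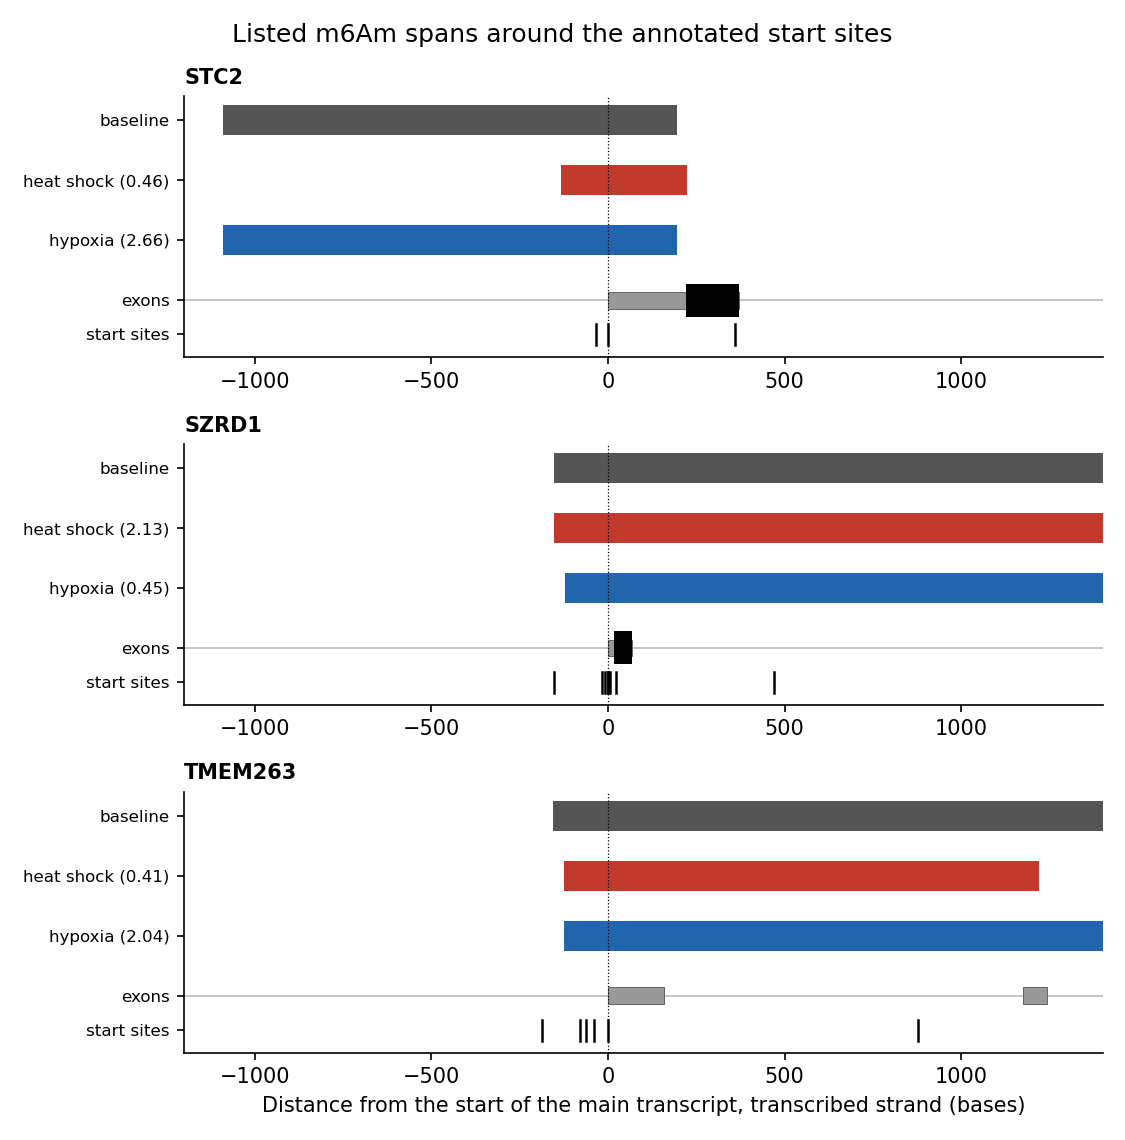
The same spans close to the main start on the transcribed strand, where 0 on the axis is the first base of the main transcript and spans that reach the right edge continue beyond it. The heat shock span of STC2 starts at −134 and its hypoxia and baseline spans at −1089, whereas both stress spans of TMEM263 start at −125, and those of SZRD1 at −152 (heat shock) and −123 (hypoxia).

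The content of the spans in exons of the main transcript differed between the genes. The stress spans of TMEM263 held 5′-UTR and no coding sequence, those of STC2 held 5′-UTR with at most 4 coding bases, and those of SZRD1 held, within exons of the main transcript, 120 (heat shock) and 190 (hypoxia) coding bases behind a main 5′-UTR of only 16 bases. The direction of the ratio did not go with the longer span in every gene. In STC2 and TMEM263 the span listed with the higher ratio was the longer, with 1284 against 359 bp and 3496 against 1344 bp. In SZRD1 the span with the higher ratio was slightly the shorter, 26157 against 26198 bp. Relative to all lines, the heat shock span of STC2 was short and its hypoxia span was of middle length, as 29.7% of heat shock lines and 49.7% of hypoxia lines were shorter. The corresponding shares were 86.5% and 89.5% for SZRD1 and 54.1% and 64.9% for TMEM263.

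**Figure D4:**
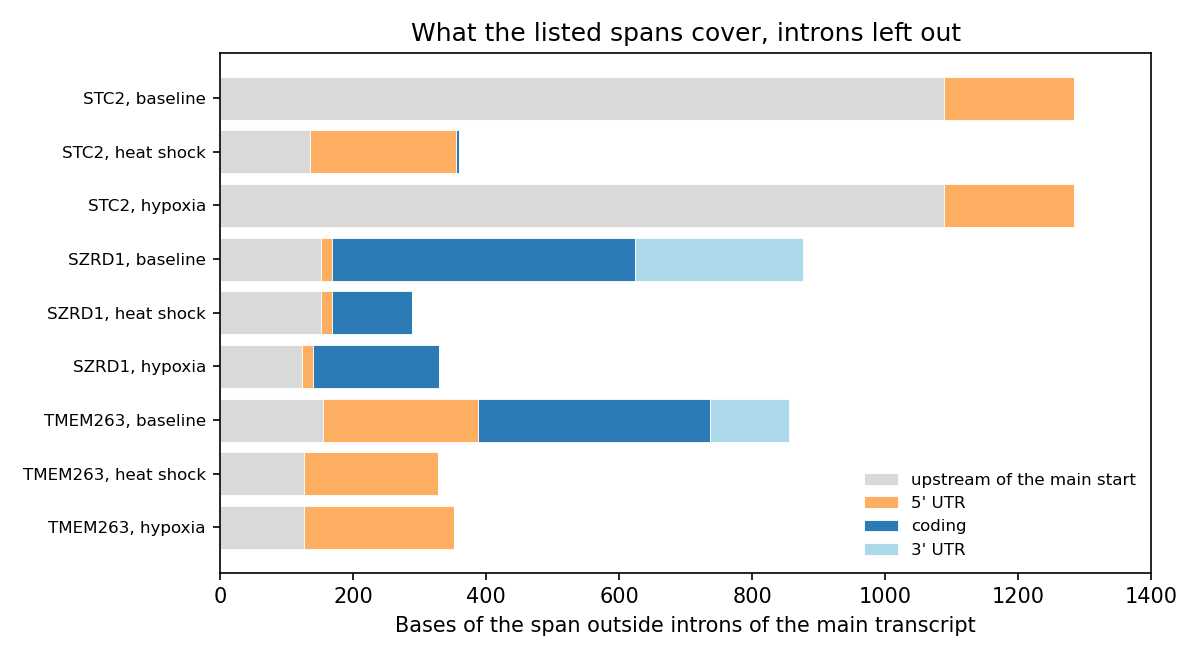
Bases of each span that lie upstream of the main start, in the 5′-UTR, in coding sequence or in the 3′-UTR of the main transcript, with its introns left out, for the 9 listed spans. Coding bases number 4 in the heat shock span of STC2, 120 and 190 in the heat shock and hypoxia spans of SZRD1, and none in the stress spans of TMEM263.

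Each of the 3 genes was present at baseline, and all 6 stress spans overlapped the baseline span of the same gene. In the whole lists, 55.4% of heat shock lines and 55.1% of hypoxia lines carried a gene name that the baseline list also had, and 60.8% and 56.4% overlapped a baseline span. The hypoxia span of STC2 was identical to a baseline span, as were 11.0% of hypoxia lines, and the heat shock span of SZRD1 shared its 5′ end with one. The remaining 4 stress spans shared neither end with a baseline span, whereas 41.9% of heat shock lines and 46.4% of hypoxia lines shared at least 1 end. At 50% of both lengths, the baseline span matched the hypoxia span of STC2 and both spans of SZRD1 but neither span of TMEM263, which made up 8.53% (heat shock) and 22.2% (hypoxia) of the baseline span. In the whole lists, 45.9% of heat shock lines and 45.6% of hypoxia lines matched a baseline span at this limit. Several ends of the spans of a gene were offset by 29 or 30 bases, namely the 3′ end in STC2 and the 5′ end in SZRD1 and TMEM263.

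The other genes in both lists served as the comparison. A total of 19 gene names stood in both stress lists. Of these, 9 were above 1 in both, 5 were below 1 in both, and 2 (MFSD11 and TMEM107) were listed in both directions within 1 list for the same span. The 3 described here were the rest. Those above 1 in both included C6orf106, CLASP1, EXOC8, HIST2H2BE, KHSRP, KIF1BP, ROBO1 and TSHZ1, which had heat shock ratios of 1.53 to 2.20 and hypoxia ratios of 2.04 to 2.41. Those below 1 in both were DDT, INHBC, LBHD1, SLC25A5 and TROVE2, with heat shock ratios of 0.0232 to 0.464 and hypoxia ratios of 0.126 to 0.574. The overlap between the heat shock and hypoxia spans, as a share of their union, had a median of 100% over the 16 other genes. It was 99.6% in SZRD1, 38.4% in TMEM263 and 25.0% in STC2. Lower values than those of TMEM263 and STC2 were seen in TSHZ1 (0.321%), whose hypoxia span of 240 bp lay at the start of a heat shock span of 74833 bp, and in EXOC8, where the spans shared no base. By name, 9 of the 16 other genes were in the baseline list. With 3 genes against 16, and with the ratios used for the choice, these counts were not tested.

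**Figure D5:**
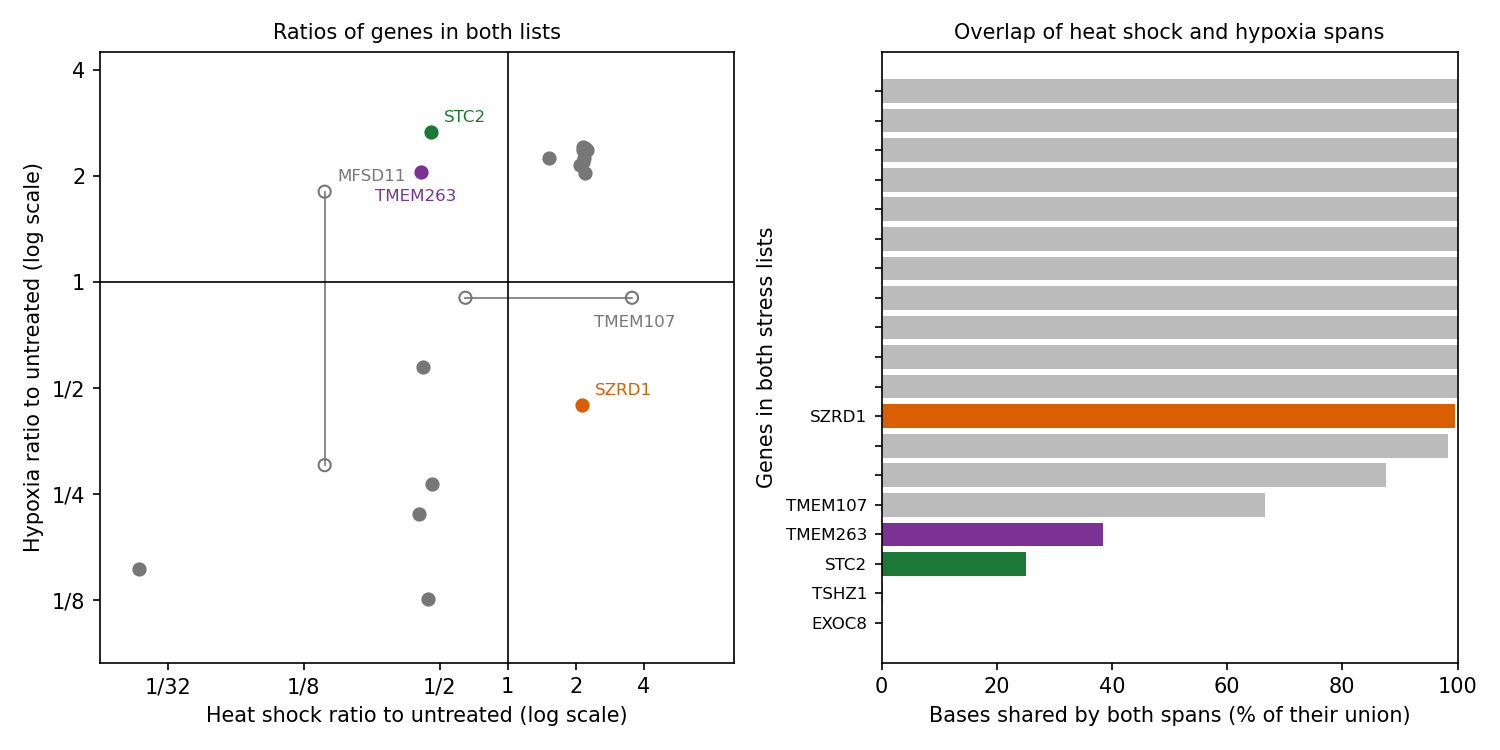
Left, heat shock ratio against hypoxia ratio on log axes for the 19 genes in both stress lists, where open symbols joined by a line are MFSD11 and TMEM107, each listed in both directions within 1 list. Right, bases shared by the heat shock and hypoxia spans as a percentage of their union, which is 99.6% for SZRD1, 38.4% for TMEM263 and 25.0% for STC2, while 10 genes had spans identical in start and end; grey bars are the other genes, of which those with the smallest overlap are named.

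Likeness of pattern was taken as the distance between genes in the plane of both log2 ratios, over the 2 stresses, with 16 candidate genes for each once the genes listed in both directions were left out. STC2 and TMEM263 were nearest to each other, at a log2 distance of 0.41, which the choice of genes fixes, since no other candidate stood below 1 after heat shock and above 1 in hypoxia. The nearest gene outside the 3 was KHSRP for STC2, at 1.75, with ratios of 1.53 and 2.24, and DDT for TMEM263, at 1.83, with ratios of 0.420 and 0.574. For SZRD1, CLASP1 (2.19 and 2.04) was nearest at a distance of 2.19, and here too the choice left no other candidate on the same sides of 1. A distance over 2 values is a description only.

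Lists of genes with related functions were counted by name. They are short and leave out other genes of each function, and a count by name misses any peak listed under another gene's name. Among 25 targets of hypoxia-inducible factors (HIF), the transcription factors stabilised at low oxygen, 3 were in the hypoxia list. All of them were above 1, as were 92.1% of all hypoxia lines. These targets were the transcription repressor gene BHLHE40 at 8.34, the glycolytic hexokinase gene HK2 at 6.45 and INSIG2, a regulator of sterol synthesis, at 6.22. Each of the 3 had a ratio above the 2.66 of STC2. The glycolytic enolase gene ENO2, a HIF target outside that list and added after its value was seen, was at 3.49 in hypoxia. One HIF target, the MYC antagonist gene MXI1, was in the heat shock list at 0.451, beside the 0.458 of STC2. Of 30 genes of the unfolded protein and amino acid responses, 7 were named in the baseline list, 1 in the hypoxia list (the stress-induced transcription factor gene ATF3, at 11.5) and none in the heat shock list. The paper also reports raised m6Am in CHOP (DDIT3) and GLUT1 (SLC2A1) in hypoxia. No line of the hypoxia list carries any of these names, so their absence from the counts does not mean that they were unchanged. STC1, the other stanniocalcin gene, was in none of the lists. Among 6 genes of SUZ or R3H domain proteins, R3HDM2 was listed after heat shock at 0.434, on the other side of 1 from SZRD1, and its span enclosed the one listed as INHBC. The INHBC span was below 1 in both stresses, at 0.442 after heat shock and 0.126 in hypoxia, where SZRD1 was also below 1. Names beginning with TMEM share a label and not a function. Of the 20 such names in any list, TMEM263 and TMEM107 were in both stress lists. The share of all genes that each peak list holds was not computed, so no count of these functional lists is read as an enrichment.

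Promoters of the 3 genes were read from RefSeq (GRCh38.p14) as windows of 300 bases, 250 before and 50 from the start, with 1 window for STC2, 1 for SZRD1 and 2 for TMEM263. Each matched GRCh37 at 1 place, at the main starts given above and, for the second TMEM263 window, at 107350563, an adenosine start that also lay inside both stress spans. The core of the HIF-binding element, searched as ACGTG or GCGTG on both strands, occurred 3 times in STC2, once in SZRD1, and 4 and 3 times in the windows of TMEM263. It was found in 48.4% of all 35114 RefSeq windows, so its presence in these genes is no sign of binding. A pair of inverted heat shock factor units, searched as GAANNTTC or TTCNNGAA on both strands, was found in 13.5% of all windows and in none of the 4.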

How the data were processed

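m6Am-seq was performed in HEK293T cells, and the authors deposited 3 lists of m6Am peaks rather than counts. According to the methods and the labels, reads were trimmed with Trim Galore 0.6.6, aligned to hg19 and called with exomePeak and MACS2. Peaks were kept where m7G-IP peaks overlapped them and the FTO (−) to FTO (+) ratio exceeded 2. For each stress, the authors ran exomePeak and DESeq2 against the untreated cells and called a peak stress-induced at a difference above 2. How replicates were combined is not given in the sources used here. The deposited stress value is headed as a log2 fold change, but 0 values are negative. It was therefore taken as the authors' linear ratio (fold) of stressed to untreated cells. The paper reports 31 decreased m6Am peaks in hypoxia, and 31 hypoxia lines are below 1, while its other counts of changed m6Am peaks differ from those of the lists. This column, a comparison made by the authors, was used because no other value was given.

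Coordinates were read as counted from 1, since 224 baseline starts then coincided with an exon start, against 15 and 17 after a shift by 1 base. Start sites, exons and sequence came from Gencode release 44 on GRCh37. Spans were taken to overlap from 1 bp, with Python 3.11.15 and Matplotlib 3.10.9. The interval code was tested on simulated data. Named genes were the 3 members, the other genes in both stress lists (at most 10 per pair of directions), the nearest gene by ratio, and listed members of the functional gene lists. One gene in both stress lists is not reported here by name. The members and gene lists were chosen with earlier results of these data known. Alternatives were a 50% overlap, exonic bases, protein-coding starts, starts counted from 0, the log2 reading, limits of 2- and 3-fold, overlapping spans in place of names, distinct spans, and baseline matching by overlap or by an end. No statistical test was made.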

Additional observations from a re-analysis of the deposited data

How the results depend on the processing

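No paired analysis was possible because the lists hold 1 value per peak and no values per replicate, and for the same reason no replicate could be left out. Of 30 alternative values, 16 were classed as the same, a class that allowed small changes. Within it, overlapping spans gave 20 pairs in place of 19 genes named in both stress lists. Distinct spans gave 93% in place of 92.1% of hypoxia lines above 1. The 14 values that moved include 9 of 18 distances to a start site. These changed by 1 base where starts were counted from 0 and by 33 bases where only protein-coding starts of STC2 were used. When 50% of both spans had to overlap, 1 gene in place of 3 passed, whereas 3 did on exonic bases at either limit. All 3 genes kept opposite directions at 2-fold, but the authors' own limit of a difference above 2 largely fixed this outcome, so it shows little. None (0) of the 3 genes kept them at 3-fold. None (0) did if the ratio was read as a log2 value, as its heading names it, since it has no negative values. Counting overlapping spans whatever their names gave 5 pairs on opposite sides of 1 in place of 3, the added ones being TMEM107 and MFSD11, which are listed in both directions. Of the 6 stress spans, 2 had an end in common with a baseline span. Depth is unknown, and sites beyond the listed peaks cannot be called unmethylated.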
